A study of Mus musculus with 6 samples.

Results

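Glycolysis splits glucose into pyruvate in the cytosol, and the 35 genes described here carry glucose from the cell surface to the mouth of the tricarboxylic acid cycle. They cover 17 steps: glucose transporters, the glycolytic enzymes, lactate dehydrogenase and its carriers, the mitochondrial pyruvate carrier, and the pyruvate dehydrogenase complex with its kinases. All 35 were found among the 55416 gene identifiers of the count files. They were selected on the CPM of the same 6 libraries, cKO against control with and without cKO library 2, so their differences between the groups are given as a description and support no claim about the pathway.

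The study measured RNA of cells labelled as oligodendrocyte precursor cells, the dividing progenitors of myelin-forming cells. They were taken from the cortex of mice on postnatal day 11. In 3 samples, called Ift88 cKO, both copies of Ift88 were floxed. In the other 3, called Ift88 control, 1 copy was floxed and 1 was wild type. The genotypes were Pdgfra-Cre:Ift88 fl/fl; RosaEYFP and Pdgfra-Cre:Ift88 fl/wt; RosaEYFP, so the controls shared the Cre, the reporter and a floxed allele. The product of Ift88 carries cargo along the axoneme, without which no primary cilium forms. Cortices of 4 to 6 mice went into each sample, and the SE and p-values below therefore measure the spread between pools. The Wilson intervals given for shares do not cover that spread. They treat every tag as independent and are too narrow where tags are PCR copies of the same molecule. Recombination in this design is limited to cells in which the Pdgfra promoter has been active. Other cells of a cKO pool keep unrecombined floxed copies, and all cells of a control pool keep the wild-type copy.

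Glucose enters through facilitative transporters and is trapped by hexokinase. Phosphofructokinase commits it to breakdown, and the later enzymes recover ATP and NADH. Pyruvate is then either reduced to lactate, which leaves through monocarboxylate transporters, or carried into mitochondria and oxidised by pyruvate dehydrogenase. The pyruvate dehydrogenase kinases hold that complex inactive. In the nervous system, glia are known to export lactate that axons can burn, and oligodendrocyte lineage cells are known for the lactate transporter MCT1, encoded by Slc16a1.

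Total counts were 13909236, 568509 and 11773548 in cKO libraries 1, 2 and 3, against 12756650 to 13652035 in the control libraries. The shallow cKO library 2 stood apart. A count of 0 allowed up to 5.28 CPM there (counts scaled to an equal library total) and up to 0.216 to 0.255 CPM in the other 5, which covers counting error only because copies made by PCR are not independent molecules. Ift88 had 1, 0 and 305 counts in cKO libraries 1, 2 and 3 and 143, 32 and 167 counts in control libraries 1, 2 and 3. The position of the floxed exons is not stated, and tags from the 3' end may fall beyond them, so these counts do not check the genotypes. Of 15 precursor markers, 5, 0 and 9 reached 20 counts in cKO libraries 1, 2 and 3, and 4, 7 and 7 in control libraries 1, 2 and 3. Among the others, Sox10, Tnr, Pcdh15 and Neu4 had 0 counts in all 6 libraries, and Olig1 and Olig2 had counts in cKO library 3 alone.

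In cKO library 2, the pathway was sampled as a few large counts and many zeros. There, 21 of 35 genes had 0 counts, 5 had fewer than 20, and 9 had 20 or more, 8 of which lay between 302 and 550. In each of the other 5 libraries, 26 to 29 of the 35 reached 20 counts. Of 23 genes above 5.28 CPM in all 5 deeper libraries, 13 had 0 or 1 count in cKO library 2. A high or low value in that library is therefore a single draw, and values are given with and without it.

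**Figure D1:**
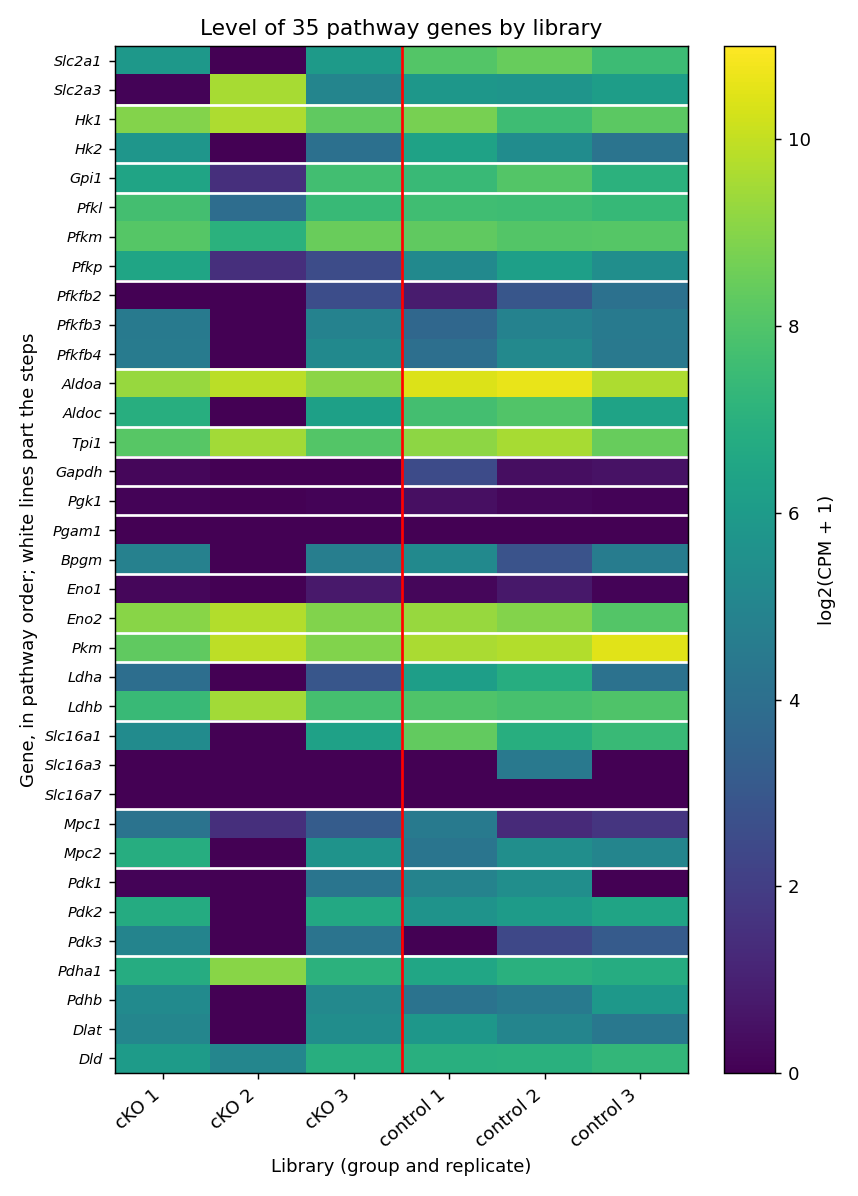
Level of each of the 35 genes as log2(CPM + 1) in the 3 cKO libraries (left of the red line) and the 3 control libraries, with genes in pathway order and white lines between steps. Gapdh, Pgk1, Pgam1 and Eno1 were at or near the dark end in every library, the brightest being Gapdh in control library 1, and cKO library 2 was either dark or bright for most genes.

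The first feature of the pathway was a gap in its middle. The genes of 4 enzymes that most cells use had almost no reads. Gapdh, which encodes glyceraldehyde-3-phosphate dehydrogenase, had 2, 0 and 0 counts in cKO libraries 1, 2 and 3, against 64, 4 and 6 counts in control libraries 1, 2 and 3. Pgk1, the phosphoglycerate kinase, had at most 5 counts in any library and Eno1, the widely used enolase, at most 8. Pgam1, the phosphoglycerate mutase, had 0 counts in all 6. Tpi1 just before them and Pkm just after them had 265 CPM or more in every library, and no level of the steps between is read from these counts.

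Reads that align equally well to several places were not counted, so the genes were compared with near-identical relatives elsewhere in the genome. The part of such relatives in the low counts was not tested. In the last 500 bases of its longest coding transcript, 90.5% of the 50-base windows of Gapdh were found unchanged in transcripts of 141 other genes, 135 of them annotated pseudogenes. For Eno1 it was 75.2%, shared with 5 genes. Over 21894 coding genes, 6.26% had at least 50% of these windows shared, and Gapdh and Eno1 were the 2 members that did. For Pgk1 the share was 7.32% and for Pgam1 0%, by this measure of the last 500 bases. Read the other way, the annotated pseudogenes Pgk1-rs7 and Pgam1-ps2 had 100% of their own windows identical to Pgk1 and Pgam1, and held 0 counts and at most 58 counts in any library. Copies with no annotation were not compared.

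Reads of the same step appeared under relatives of these genes, a set picked after the values were seen. Eno1b, a processed copy of Eno1 with 75.3% of its windows identical to Eno1, had 833, 0 and 681 counts in cKO libraries 1, 2 and 3 and 1643, 2233 and 1235 counts in control libraries 1, 2 and 3. The pseudogene Pgam1-ps1, 28.1% identical by this measure, had 1646, 0 and 1548 counts in the cKO libraries and 3614, 3721 and 1977 counts in the controls. Gapdh-ps14, with 12.1% identical windows, had 1264, 2 and 1878 counts in the cKO libraries and 1992, 3716 and 1824 counts in the controls. Both Eno1b and Pgam1-ps1 were lower in every cKO library than in every control, whereas Gapdh-ps14 overlapped between the groups in CPM.

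Aldolase showed the same kind of spread over relatives while the parent gene kept its reads. Aldoart1 and Aldoart2 are retrogenes known from testis. Aldoart2 had 3804, 1 and 2603 counts in the cKO libraries and 10531, 9328 and 6287 counts in the controls, with 0% of its 50-base windows identical to Aldoa. Aldoart1 had 2999, 403 and 1824 counts in the cKO libraries and 5071, 5617 and 4024 counts in the controls. Of the 18 relatives listed, 15 reached 20 counts in some library and 11 of those lay below every control in both deeper cKO libraries, where 12.6% of all genes tested did. Nothing is read from this count, since the set was picked with its values known. Whether these reads came from the relatives or from the parent genes was not tested, and no level of a step is given from their sum.

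**Figure D2:**
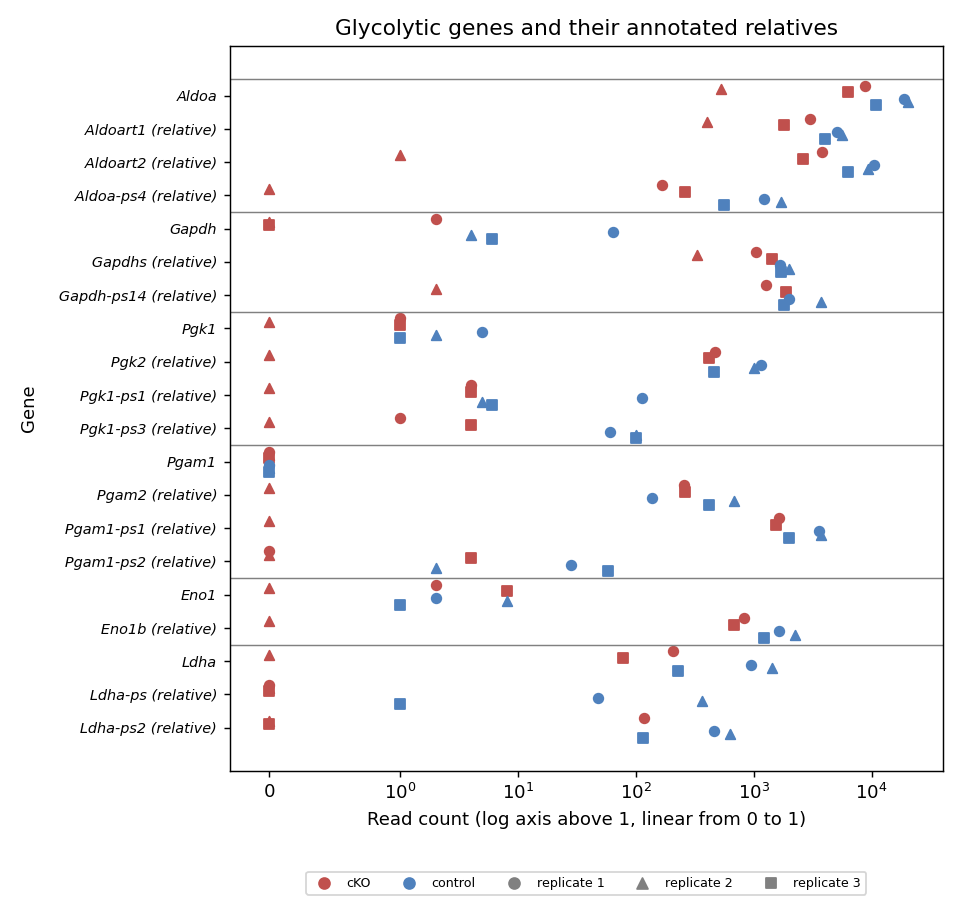
Read counts (log axis above 1, linear from 0 to 1) of 6 glycolytic genes and their annotated relatives with at least 20 counts in some library, in 3 cKO (red) and 3 control (blue) libraries. Gapdh, Pgk1, Pgam1 and Eno1 lay at or near 0 while relatives such as Eno1b and Pgam1-ps1 held 681 counts or more in the 5 deeper libraries.

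Among genes with reads, 5 held most of the tags counted under the 35 genes. Aldoa, Pkm, Eno2, Tpi1 and Hk1 made up 57.0%, 65.9% and 53.4% of the summed level of the 35 genes in cKO libraries 1, 2 and 3, and 60.5%, 60.8% and 61.8% in control libraries 1, 2 and 3. Tags from the 3' end are not expected to rise with transcript length, so CPM was compared between genes without a length term. PCR copies and uncounted reads can still differ between genes, so the shares are of counted tags. The summed level was 3954, 6420 and 3926 CPM in cKO libraries 1, 2 and 3, against 6229.8, 6375 and 5123 CPM in control libraries 1, 2 and 3. Cells that carried less of these transcripts and pools with fewer cells that carry them cannot be told apart in bulk RNA. Both deeper cKO libraries lay below every control, and cKO library 2 lay above them.

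The sums were also taken by part of the pathway. From uptake to pyruvate kinase, 21 genes summed to 3211, 5143 and 3111 CPM in the cKO libraries and to 5173, 5440.2 and 4216 CPM in the controls. For lactate dehydrogenase and the lactate carriers, 5 genes, the sums were 226, 712 and 297 CPM in the cKO libraries and 651, 474 and 438 CPM in the controls. The 9 genes of pyruvate entry summed to 516, 565 and 518 CPM in the cKO libraries and 406, 460.0 and 469 CPM in the controls. For pyruvate entry every cKO library was above every control, but in cKO library 2 the sum was almost wholly Pdha1, at 531 CPM, and gene by gene 3 of the 9 were above and 1 below every control without that library.

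Slc2a1, which encodes the glucose transporter GLUT1 (GRCm39 chromosome 4, 118965908 to 118995180), was lower in every cKO library than in every control. It had 57.7, 0 and 62.8 CPM in cKO libraries 1, 2 and 3, against 265, 346 and 185 CPM in control libraries 1, 2 and 3. The groups did not overlap, but the 0 in the shallow cKO library 2 adds little to that, and the list was chosen on these values. The log2 fold change was -2.72 (SE 1.60) in all 6 libraries and -2.14 (SE 0.40) without cKO library 2. Slc2a3, the neuronal transporter GLUT3, had 0.0719, 763 and 30.7 CPM in the cKO libraries and 55.3, 52.4 and 68.6 CPM in the controls. Its fold change was 2.09 (SE 1.56) with cKO library 2 and -1.95 (SE 1.55) without it, so the sign turned when that library was left out, and it also turned with the replicate number as a block, to -1.27 in all 6 libraries.

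The promoters of Slc2a1, Ldha and Slc16a1 are shown because these were the 3 well-detected genes of uptake and lactate handling that lay below every control in all 3 cKO libraries. All 3 had 0 counts in the shallow cKO library 2, so their separation rests on the other cKO libraries. They come from RefSeq on GRCm38.p6, run from 250 bases before to 50 bases after the start, and are written 5′ to 3′ on the gene's strand at chr4:119108495-119108794 (+), chr7:46845554-46845853 (+) and chr3:104638414-104638713 (+). Capitals mark ACGTG and GCGTG on either strand, the core of the element bound by hypoxia-inducible factors, so that each CACGTG holds overlapping matches on both strands.
Slc2a1: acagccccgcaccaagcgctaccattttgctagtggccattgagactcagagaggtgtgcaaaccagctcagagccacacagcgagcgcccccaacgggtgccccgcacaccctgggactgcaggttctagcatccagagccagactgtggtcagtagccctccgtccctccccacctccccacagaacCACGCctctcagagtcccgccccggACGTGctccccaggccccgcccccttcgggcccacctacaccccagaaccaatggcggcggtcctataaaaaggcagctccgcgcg
Ldha: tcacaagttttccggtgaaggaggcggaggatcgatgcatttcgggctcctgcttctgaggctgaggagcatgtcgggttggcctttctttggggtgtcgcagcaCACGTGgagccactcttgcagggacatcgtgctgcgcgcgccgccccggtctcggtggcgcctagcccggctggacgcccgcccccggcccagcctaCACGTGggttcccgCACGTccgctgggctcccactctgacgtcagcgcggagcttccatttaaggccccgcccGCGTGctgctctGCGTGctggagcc
Slc16a1: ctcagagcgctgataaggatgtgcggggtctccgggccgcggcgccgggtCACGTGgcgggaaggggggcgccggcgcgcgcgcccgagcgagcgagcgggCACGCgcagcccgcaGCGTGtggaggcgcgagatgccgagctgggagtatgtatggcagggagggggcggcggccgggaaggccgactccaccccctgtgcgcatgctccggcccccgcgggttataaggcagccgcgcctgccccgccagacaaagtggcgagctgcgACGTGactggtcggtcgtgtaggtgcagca

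Counting both strands, the Ldha promoter held 7 matches, that of Slc16a1 held 5 and that of Slc2a1 held 2. Of the 33 members with a promoter in the table, 24 (72.7%) held at least 1 match, against 43.8% of 27025 genes by the first promoter listed for each. At least 3 matches were found in 10 of the 33 members and in 9.11% of all genes. Base composition was not matched between the members and all genes, and a match is a string of letters, not a bound site. The promoters of Aldoa, Tpi1, Pkm and Dld, which were also lower in both deeper cKO libraries, held 0 matches, and those of Gapdh and Ldhb, lower as well, held 3 and 1. Those of Pdk3, Mpc2 and Pdk2, which were higher, held 4, 1 and 2. Other promoters of these genes and sequence farther from the start were not searched. The part of these matches in the differences was not tested.

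Hexokinase did not follow the glucose transporter. Hk1, the isozyme of brain, had 493, 797 and 317 CPM in cKO libraries 1, 2 and 3 and 423, 190 and 303 CPM in control libraries 1, 2 and 3, so all 3 cKO libraries lay above 2 of the controls. Hk2, the inducible isozyme, had 53.8, 0 and 15.6 CPM in the cKO libraries and 80.1, 39.6 and 17.7 CPM in the controls. Hk1 made up 90.2% of the hexokinase tags in cKO library 1 (95% Wilson interval 89.5 to 90.8%), 100% in library 2 (99.2 to 100%) and 95.3% in library 3 (94.6 to 95.9%), against 84.1% (83.2 to 84.9%), 82.7% (81.3 to 84.1%) and 94.5% (93.8 to 95.1%) in control libraries 1, 2 and 3. Control library 3 thus resembled the cKO libraries in this share. The interval of cKO library 2 is the least safe, since its tags may be copies of few molecules. Gpi1, the isomerase that follows, had 86.1, 1.76 and 205 CPM in the cKO libraries and 176, 264 and 132 CPM in the controls, which overlapped.

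The main phosphofructokinase genes overlapped between the groups. Pfkm, the muscle-type subunit, had 272, 128 and 355 CPM in the cKO libraries and 314, 265 and 276 CPM in the controls. Pfkl, the liver-type subunit, had 210, 14.1 and 171 CPM in the cKO libraries and 199, 191 and 165 CPM in the controls. Without cKO library 2 their log2 fold changes were 0.14 (SE 0.27) for Pfkm and 0.06 (SE 0.31) for Pfkl, among the smallest SE of the pathway. Pfkp, the platelet-type subunit, had 87.6, 1.76 and 4.84 CPM in the cKO libraries and 36.5, 73.3 and 42.9 CPM in the controls, and all of its last 500 exon bases overlapped another gene, where unstranded counting cannot assign reads.

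The bifunctional enzymes that make and remove the phosphofructokinase activator fructose 2,6-bisphosphate were low. Pfkfb3, which favours synthesis, had 21.4, 0 and 28.8 CPM in the cKO libraries and 11.9, 28.3 and 21.4 CPM in the controls. Pfkfb4 had 22.9, 0 and 36.3 CPM in the cKO libraries and 15.3, 35.2 and 20.7 CPM in the controls. Both overlapped between the groups. Pfkfb2 had 0, 0 and 5.01 CPM in the cKO libraries and 0.806, 6.74 and 16.1 CPM in the controls, and 1 library in each group was below 1 CPM besides cKO library 2, so its log2 fold change of -1.64 without that library had an SE of 2.81.

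Aldolase, triose phosphate isomerase and pyruvate kinase were lower in both deeper cKO libraries than in every control. Aldoa, aldolase A (chromosome 7, 126394406 to 126399923), had 634, 922 and 537 CPM in cKO libraries 1, 2 and 3 and 1377, 1588 and 805 CPM in control libraries 1, 2 and 3. Tpi1, which interconverts the triose phosphates, had 279, 700.1 and 265 CPM in the cKO libraries and 552, 745 and 348 CPM in the controls. Pkm, pyruvate kinase (chromosome 9, 59563651 to 59586658), had 322, 967 and 487 CPM in the cKO libraries and 776, 861 and 1446 CPM in the controls. In all 3 genes cKO library 2 lay within the range of the controls, on 398 to 550 counts. Without it the log2 fold changes were -1.10 (SE 0.36) for Aldoa, -1.01 (SE 0.38) for Tpi1 and -1.33 (SE 0.34) for Pkm, and with it they were -0.89 (SE 0.67), -0.46 (SE 0.92) and -0.83 (SE 0.74). With cKO library 2 the sign also turned with the scaling, to 0.01 for Aldoa, 0.61 for Tpi1 and 0.18 for Pkm under RLE and to 3.14, 3.92 and 3.52 for these genes under upper-quartile scaling. A second identifier with the symbol Aldoa had 155, 0 and 0 counts in the cKO libraries and 0, 48 and 0 counts in the controls and was left out.

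Aldoc, Eno2 and Bpgm act in the same stretch of the pathway. Aldoc, the aldolase of astrocytes, had 120, 0 and 75.7 CPM in the cKO libraries and 208, 254 and 81.7 CPM in the controls, with cKO library 1 above the lowest control. The log2 fold change of Aldoc without cKO library 2 was -0.89 (SE 0.55), of the same sign as that of Aldoa. Eno2, the neuronal enolase, had 524, 848 and 489 CPM in the cKO libraries and 640, 494 and 263 CPM in the controls, and its log2 fold change without cKO library 2 was 0.12 (SE 0.40). Bpgm, which makes and removes 2,3-bisphosphoglycerate, had 27.4, 0 and 25.4 CPM in the cKO libraries and 36.7, 6.04 and 23.2 CPM in the controls. None of these 3 genes separated the groups.

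**Figure D3:**
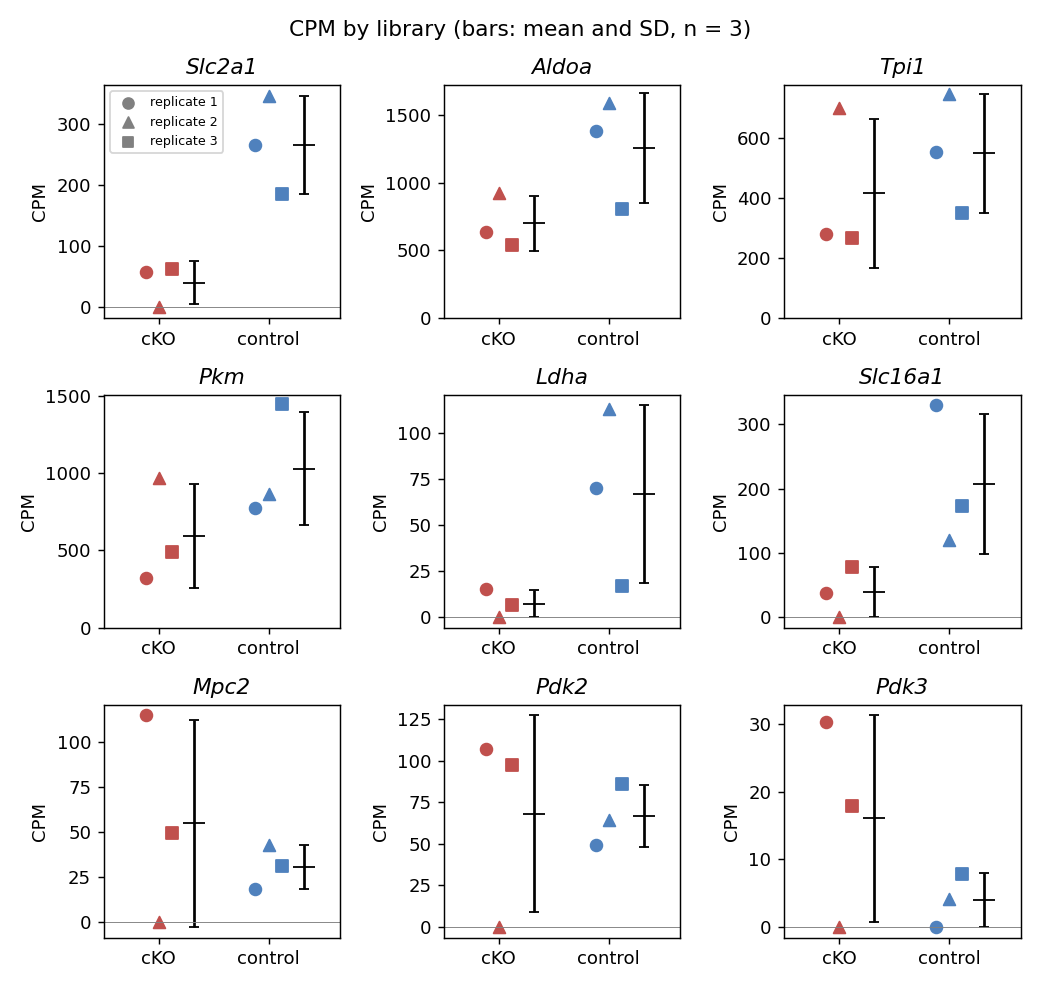
CPM of 9 genes in each library, cKO (red, left) and control (blue, right), with replicate 1 as circles, 2 as triangles and 3 as squares, and mean and SD over 3 libraries as black bars. In Slc2a1, Ldha and Slc16a1 all cKO libraries lay below all controls, in Aldoa, Tpi1 and Pkm cKO library 2 lay among the controls, and in Mpc2, Pdk2 and Pdk3 it was at 0 below them or level with the lowest.

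Lactate handling held the pathway's lowest fitted fold change, that of Ldha. Ldha, the dehydrogenase subunit that favours lactate formation (chromosome 7, 46490899 to 46505051), had 14.9, 0 and 6.63 CPM in cKO libraries 1, 2 and 3 and 70.1, 113 and 16.9 CPM in control libraries 1, 2 and 3. Its log2 fold change was -3.16 (SE 1.86) in all 6 libraries and -2.63 (SE 0.93) without cKO library 2. The gap between the groups was small, since control library 3 was 16.9 CPM and cKO library 1 was 14.9 CPM. Ldhb, the subunit that favours pyruvate, had 173, 712 and 213 CPM in the cKO libraries and 251, 221 and 248 CPM in the controls, with a log2 fold change of -0.31 (SE 0.28) without cKO library 2.

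The 2 subunits were also compared as shares. Ldhb was 92.1% of both genes in cKO library 1 (95% Wilson interval 91.0 to 93.0%), 100% in library 2 (99.1 to 100%) and 97.0% in library 3 (96.3 to 97.6%). In control libraries 1, 2 and 3 it was 78.2% (76.9 to 79.4%), 66.2% (64.7 to 67.6%) and 93.6% (92.8 to 94.4%). Control library 3 lay between cKO libraries 1 and 3, so the groups overlapped in this share. Of the windows of Ldhb, 24.4% were shared with 1 pseudogene and of those of Ldha 0%, while 2 annotated Ldha pseudogenes, Ldha-ps and Ldha-ps2, held 0, 0 and 0 and 117, 0 and 0 counts in the cKO libraries and 48, 363 and 1 and 457, 635 and 116 counts in the controls.

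Slc16a1, which encodes MCT1, the main lactate carrier of the oligodendrocyte lineage (chromosome 3, 104545984 to 104565778), had 38.2, 0 and 77.5 CPM in the cKO libraries and 330, 119 and 173 CPM in the controls. No cKO library reached the lowest control. The log2 fold change was -2.42 (SE 1.68) in all 6 libraries and -1.85 (SE 0.56) without cKO library 2. Slc16a3, the export carrier MCT4, had 264 counts in control library 2 and 0 in the other 5. Slc16a7, the neuronal carrier MCT2, had 0 counts in all 6, which allows up to 0.216 to 0.255 CPM in the deeper libraries.

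The mitochondrial pyruvate carrier is made of a pair of subunits. Mpc2 (chromosome 1, 165288206 to 165308783) had 115, 0 and 49.2 CPM in cKO libraries 1, 2 and 3 and 18.2, 42.6 and 31.0 CPM in control libraries 1, 2 and 3. Both deeper cKO libraries lay above every control, the nearest pair being 49.2 CPM in cKO library 3 and 42.6 CPM in control library 2. Its log2 fold change was 1.45 (SE 0.59) without cKO library 2 and 0.86 (SE 1.73) with it. Mpc1 had 17.5, 1.76 and 8.07 CPM in the cKO libraries and 22.1, 1.49 and 2.21 CPM in the controls, with 26.4% of its windows shared with 2 pseudogenes and 47% of its last 500 exon bases overlapping another gene.

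The kinases that switch pyruvate dehydrogenase off were split. Pdk2, the kinase found in most tissues, had 107, 0 and 97.7 CPM in the cKO libraries and 49.1, 64.6 and 86.1 CPM in the controls. Pdk3 had 30.3, 0 and 17.8 CPM in the cKO libraries and 0, 4.15 and 7.89 CPM in the controls. Outside cKO library 2, both were above every control, with log2 fold changes of 0.64 (SE 0.39) for Pdk2 and 2.64 (SE 1.95) for Pdk3. Pdk1, a kinase known to be induced by hypoxia, had 0.0719, 0 and 18.1 CPM in the cKO libraries and 29.4, 41.8 and 0 CPM in the controls. Each group held a library at or near 0 and one of at least 213 counts, so a Pdk1 level was not fixed within either group.

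The genes of the pyruvate dehydrogenase complex did not move together. Pdha1, the catalytic alpha subunit, had 112, 531 and 132 CPM in the cKO libraries and 91.0, 127 and 112 CPM in the controls, and 35.6% of its last 500 exon bases overlapped another gene. Dld, the dehydrogenase subunit shared with other complexes, had 65.5, 31.7 and 119 CPM in the cKO libraries and 123, 126 and 153 CPM in the controls. Dld was below every control in all 3 cKO libraries in CPM (its log2 fold change was -0.91 but 1.52 with upper-quartile scaling), the nearest pair being 119 CPM in cKO library 3 and 123 CPM in control library 1. Pdhb and the acetyltransferase Dlat had 31.6 to 41.0 CPM in the deeper cKO libraries and 17.0 to 57.4 CPM in the controls, and 0 counts in cKO library 2.

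None of the 29 genes that passed the filter on low counts was called between the groups, and 6 were not tested (Gapdh, Pgk1, Pgam1, Eno1, Slc16a3 and Slc16a7). In the quasi-likelihood fit of edgeR, with Benjamini-Hochberg adjustment over 12833 genes, 0 of 29 were higher and 0 lower, against 0.00779% of all genes called higher and 0.00779% called lower. At an unadjusted p under 0.05 there were 0 of 29 in all 6 libraries, where 2.83% of all genes passed, and 7 of 29 without cKO library 2, where 6.09% of 14562 genes passed. Of the 7, Mpc2 was the 1 higher, against 3.06% of all genes, and 6 were lower, against 3.03%. After adjustment over those 14562 genes 0 of 29 were called, against 0.0% of all genes higher and 0.00687% lower. DESeq2 gave an adjusted p to 15 of the 29 and to 2191 genes in all, and called 0 of the 15, against 0.228% of all genes. It gave an unadjusted p to 28 of them, of which 4 were under 0.05, against 6.59% of all genes. Since the list was chosen with this contrast known, nothing is read from these counts. The median log2 fold change of the 29 was -0.46 against -0.44 over all genes tested, and -0.09 against -0.06 without cKO library 2.

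Separation of the libraries was also counted, and both directions were present. In the deeper libraries, 10 of the 35 genes had both cKO libraries below every control: Slc2a1, Slc2a3, Aldoa, Tpi1, Gapdh, Pkm, Ldha, Ldhb, Slc16a1 and Dld. Of the 29 tested without cKO library 2, 9 lay below every control and 3 above, where 12.6% and 13.0% of all genes tested did. Those above among the 35 were Mpc2, Pdk2 and Pdk3. With cKO library 2 included, Slc2a1, Gapdh, Ldha, Slc16a1 and Dld remained below every control, and 0 of 35 lay above. Of the 29 tested, 4 lay below and 0 above, where 11.1% and 1.33% of all genes tested did. Slc2a1, Gapdh, Ldha and Slc16a1 were among the 21 genes with 0 counts in cKO library 2, which therefore adds little to their separation. Gapdh, which was not tested, is in both sets on counts of 64 or fewer. Nothing is read from these counts either, since the list was chosen with this contrast known.

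**Figure D4:**
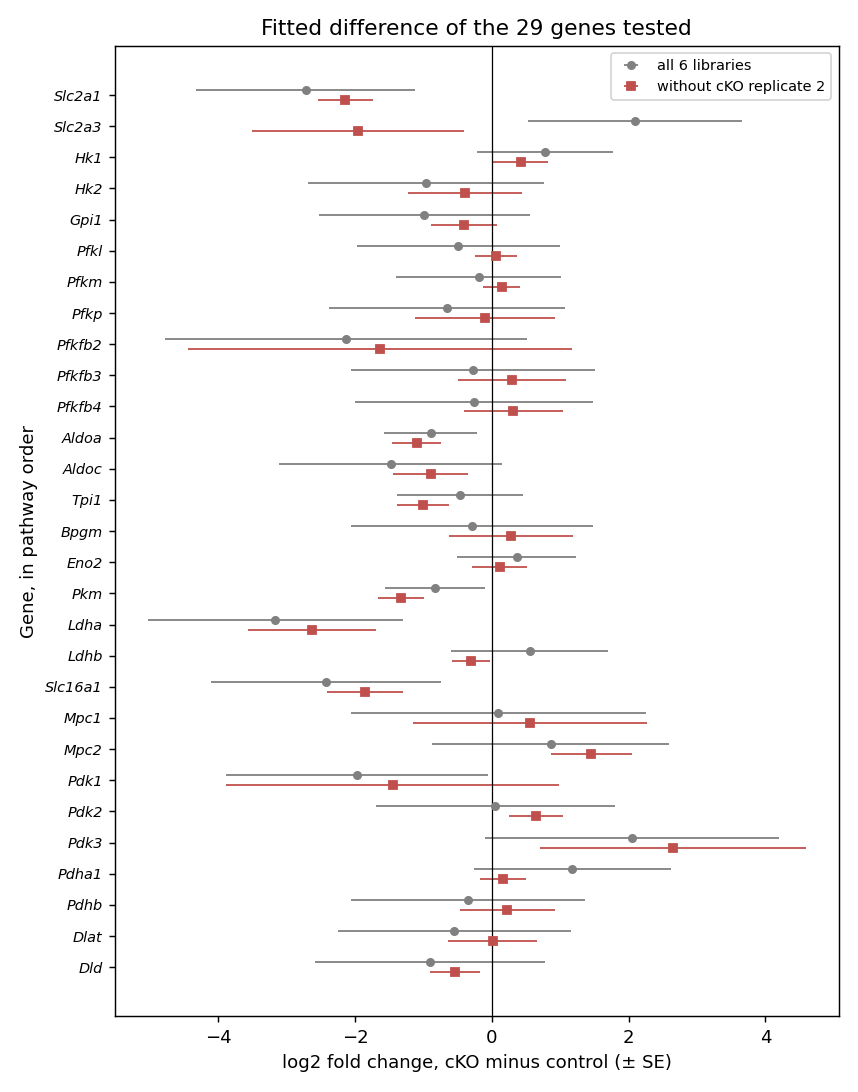
Fitted log2 fold change, cKO minus control, with SE, of the 29 genes tested, in all 6 libraries (grey circles) and without cKO replicate 2 (red squares). Errors were narrower without that library except in Pfkfb2 and Pdk1, Slc2a1 sat at -2.14 and Pfkm at 0.14 there, and Slc2a3 changed sign between the fits.

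Genes around the pathway that are no members were read from 8 further lists. Of 33 other isozymes and partner proteins, 18 passed the filter and 0 were called higher or lower by the edgeR fit after Benjamini-Hochberg adjustment, with a median log2 fold change of -1.18 in all 6 libraries and -0.59 without cKO library 2. Pdhx, which anchors Dld in the pyruvate dehydrogenase complex, had 0, 0 and 60 counts in the cKO libraries and 375, 327 and 184 counts in the controls (adjusted p = 1 by edgeR). Pklr, the pyruvate kinase of liver and red cells, had 198, 1 and 184 counts in the cKO libraries and 664, 585 and 846 counts in the controls (adjusted p = 1 by edgeR), and 100% of its last 500 exon bases overlapped another gene. Bsg, the chaperone that brings MCT1 to the membrane, named after its values were seen, had 10.1, 0 and 32.7 CPM in the cKO libraries and 55.8, 57.6 and 48.3 CPM in the controls. These were the 3 of 18 tested genes of the list that lay below every control in every cKO library, where 11.1% of all genes tested did.

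Other outlets of glucose showed no common shift. In the pentose phosphate branch 0 of 10 tested genes were called, and the median log2 fold change without cKO library 2 was -0.0029. The leading genes were Rpe, an epimerase, with 363, 0 and 255 counts in the cKO libraries and 1101, 526 and 938 counts in the controls (100% of its last 500 exon bases overlapped another gene), and Tkt, transketolase, with 5347, 1 and 6230 counts in the cKO libraries and 5253, 5104 and 12924 counts in the controls. Of 18 genes of the tricarboxylic acid cycle 0 were called, and their median was 0.06 without cKO library 2. Sdhb, a succinate dehydrogenase subunit, had 582, 1 and 507 counts in the cKO libraries and 1274, 1216 and 1875 counts in the controls, whereas Sdha of the same enzyme had 126, 953 and 144 CPM in the cKO libraries and 178, 98.7 and 161 CPM in the controls.

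Glycogen genes were called in 0 of 14 cases, gluconeogenesis genes in 0 of 4 tested, redox shuttle genes in 0 of 7 tested and regulators in 0 of 9 tested. Pygm, the muscle glycogen phosphorylase, had 1138, 1 and 2013 counts in the cKO libraries and 383, 206 and 394 counts in the controls, and Gys1, glycogen synthase, had 1, 0 and 282 counts in the cKO libraries and 454, 581 and 455 counts in the controls. These glycogen enzymes, of breakdown and of synthesis, thus differed in opposite directions in the deeper libraries. Pck2 and Fbp2 of gluconeogenesis had 173, 0 and 375 and 242, 0 and 147 counts in the cKO libraries, against 1354, 1020 and 494 and 67, 1 and 44 counts in the controls. Gpd1l and Gpd2 of the glycerol phosphate pathway had 371, 0 and 122 and 235, 0 and 72 counts in the cKO libraries, against 1, 2 and 100 and 505, 189 and 230 counts in the controls. Txnip, which restrains glucose uptake and is induced by glucose, had 75, 0 and 41 counts in the cKO libraries and 570, 1468 and 128 counts in the controls (log2 fold change -4.12, SE 1.94, edgeR adjusted p = 1), and Mlxip, a glucose-sensing transcription factor, had 0, 2 and 52 counts in the cKO libraries and 35, 0 and 0 counts in the controls.

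The list with the lowest median was that of hypoxia-response genes outside glycolysis. Of 20 genes 13 were tested and 0 were called, with a median log2 fold change of -1.24 in all 6 libraries and -0.98 without cKO library 2, beside -0.44 and -0.06 over all genes. The 2 genes with the smallest p were P4ha2, a collagen hydroxylase, with 49.2, 528 and 37.6 CPM in the cKO libraries and 27.3, 27.8 and 17.2 CPM in the controls, and Bnip3l, a mitophagy receptor, with 0, 0 and 285 counts in the cKO libraries and 1124, 654 and 116 counts in the controls (edgeR adjusted p = 1 for each). P4ha2 lay above every control in every cKO library, against the direction of the list's median. Named after their values were seen, Vegfa had 25.0, 0 and 38.1 CPM in the cKO libraries and 198, 123 and 34.9 CPM in the controls, and P4ha1 had 52.6, 26.4 and 96.1 CPM in the cKO libraries and 220, 304 and 98.4 CPM in the controls. Hif1a itself, the regulated subunit of the factor, also named after its values were seen, had 226, 1.76 and 234 CPM in the cKO libraries and 215, 246 and 277 CPM in the controls. As with Ldha, control library 3 lay nearest to the cKO libraries in Vegfa and P4ha1.

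**Figure D5:**
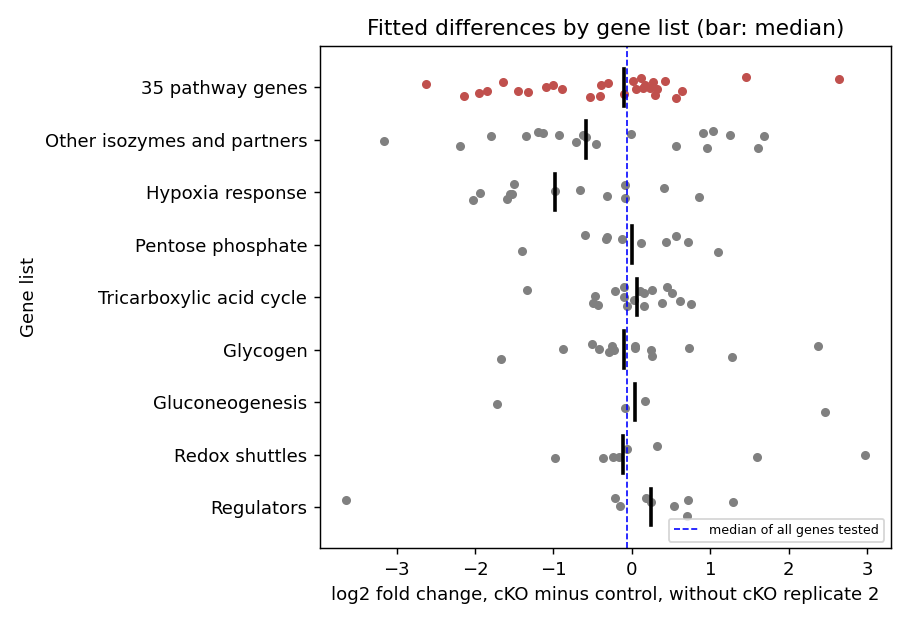
Fitted log2 fold change, cKO minus control, without cKO replicate 2, of each tested gene in the 35-gene list (red) and 8 related lists (grey), with list medians as black bars and the median of all genes tested as a dashed line. The medians of the hypoxia-response genes (-0.98) and of other isozymes (-0.59) lay farthest from it.

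The makeup of the pools differed between libraries as well. The 15 neuron markers summed to 2178 to 9381 CPM in the cKO libraries and 2482 to 8141 CPM in the controls, the lowest control being library 3. The 12 astrocyte markers summed to 682 to 931 CPM in the cKO libraries and 718 to 1109.9 CPM in the controls, and without cKO library 2, 6 of 11 tested lay below every control and 2 above, where 12.6% and 13.0% of all genes tested did. Of 14 neuron markers tested, 1 lay below and 4 above. The astrocyte marker Aldh1l1, named after its values were seen, was at 0 in every cKO library, and 49% of its last 500 exon bases overlapped another gene. The 15 precursor markers summed to 7.04 to 229 CPM in the cKO libraries and 241 to 493 CPM in the controls. Gene by gene the sum was not followed. Of 8 precursor markers tested without cKO library 2, 1 lay below every control and 3 above, with a median log2 fold change of 0.76. In every library the 15 neuron markers summed to more than the 15 precursor markers, so these sums do not bear out the precursor label. The 10 choroid plexus markers summed to 630 to 48981 CPM in the cKO libraries and 125 to 367 CPM in the controls, highest in cKO library 2, with Kl at 0. The 10 endothelial markers summed to at most 90.6 CPM in the cKO libraries and 55.5 CPM in the controls with 5 of 10 at 0 in all libraries, and the 10 myelin markers to 208 to 588 CPM in the cKO libraries and 94.6 to 567 CPM in the controls with Mog, Mag, Mobp, Opalin and Ermn at 0. Their part in the differences of Slc2a1, Slc16a1, Ldha and the other members was not tested.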

How the data were processed

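Total RNA was sequenced from the 3' end with a Lexogen QuantSeq forward kit, per the labels' protocols. The authors deposited whole-number counts for each gene, made by featureCounts 2.0.0 over Ensembl release 104 exons of GRCm39, per the file headers. The command names no strand, multi-mapping or overlap option, so by default reads with several alignments or over exons of several genes were not counted. The submitters' processing notes also list STAR, FastQC and DESeq2, with no role given.

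Genes kept by filterByExpr were scaled by TMM and tested with glmQLFit (robust) and glmQLFTest in edgeR 4.0.16 under R 4.3.3, cKO against control, 3 libraries each, two-sided, adjusted p under 0.05. The SE is the log2 fold change divided by the root of F. CPM used total counts without TMM. The edgeR script was tested on simulated counts. DESeq2 1.42.0 was an alternative. The members, lists and tests were chosen with earlier results of these data known. Genes were named by a fixed rule: all members, with values for the 14 highest and the 10 with the largest change without cKO library 2, the others briefly within their step, and the 2 genes of smallest p per related list. Bsg, Vegfa, P4ha1, Hif1a, the relatives and the cell type markers given singly were named after their values were seen. Gene symbols were looked up by identifier (52083 of 55416 matched), and transcripts and biotypes from GENCODE M21 on GRCm38, used by identifier. The replicate numbers are not described as shared litters or batches in the labels.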

Additional observations from a re-analysis of the deposited data

How the results depend on the processing

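No member was called higher or lower under any of the 12 alternatives, of which DESeq2 gave 15 members an adjusted p. Over all genes, the counts called higher and lower were 1 and 1 in the comparison reported, 14 and 2 with RLE scaling, 0 and 0 with upper-quartile scaling, 3 and 2 with DESeq2, 22 and 1 with no low-count filter and 2 and 1 with a filter of 5 CPM in 3 libraries. With the replicate number as a block, 0 were higher and 1 lower. Leaving out each library in turn gave 0 to 6 higher and 1 lower. Same-numbered libraries deviated together with correlations of 0.011 to 0.079, and 5 of 6 libraries correlated best with their own number. No level is given here above which such values would show pairing, so they do not decide whether the libraries were paired.

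The median log2 fold change of all genes, -0.44 in the comparison reported, was -0.01 with upper-quartile scaling, -0.28 with RLE scaling and, under TMM scaling with the replicate block, -1.23. Of 29 members, under all 13 settings, 9 were below 0 in every setting (Slc2a1, Hk2, Gpi1, Pfkp, Pfkfb2, Aldoc, Ldha, Slc16a1 and Pdk1), 4 were above 0 (Hk1, Eno2, Pdk3 and Pdha1) and 16 differed in sign between settings. Slc2a1 ran from -3.35 to -2.14, Ldha from -4.23 to -2.56 and Slc16a1 from -3.55 to -1.85, while Aldoa ran from -1.17 to 3.14, Pkm from -1.33 to 3.52 and Tpi1 from -1.01 to 3.92. The sign of Sdha was reversed without cKO replicate 2 (-0.10, against 1.43), and the highest value with a library left out was 1.79.

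The summed level of the members, cKO minus control, was -1142 CPM, -1305 CPM with TMM scaling, -583 CPM without Aldoa and -1969 to -722 CPM with each library left out. Counts of members below or above every control, added after the data were seen, were 10 and 3 without cKO replicate 2, 5 and 0 in all 6 libraries, 10 and 3 with TMM scaling, and 10 to 13 and 4 to 7 with a control library also left out. With a total of 568509 counts, cKO replicate 2 allows up to 5.28 CPM where it has 0 counts, by counting error alone. In all 5 deeper libraries 23 of the 35 members exceeded that level, and 13 of these had 0 or 1 count in cKO replicate 2. Because PCR copies are not independent molecules, a 0 there may stand for a higher level.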
